A study of Caenorhabditis elegans with 2 samples.

Results

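The 256 sites described here are peaks of the nuclear receptor NHR-6 that lie inside autosomal genes of Caenorhabditis elegans but away from promoters. They were taken from the 1662 peaks of the authors' optimal set by 1 rule. A peak was a member where its summit, the base at which the peak is highest, was not on chromosome X, was inside an annotated gene, and was in no window from 1000 bp upstream to 200 bp downstream of the 5′ end of a protein-coding transcript. The other optimal peaks were 757 autosomal promoter sites, 279 autosomal intergenic sites and 370 sites on X.

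Chromatin immunoprecipitation and sequencing (ChIP-seq) was run on whole second-stage (L2) larvae of strain OP90, of mixed sex, in 2 biological replicates that form a single group. OP90 carries the integrated transgene wgIs90, which adds eGFP-tagged NHR-6, in an unc-119(ed3) background. The transgene copies add to the worm's own gene, so the occupancy measured is that of the tagged protein, in all tissues together. Neither input DNA nor an untagged strain was analysed here, and the read depth behind the peak lists is unknown.

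NHR-6 is the worm's NR4A nuclear receptor, related to mammalian Nur77 and Nurr1. NR4A receptors can bind DNA as monomers at an extended core site, AAAGGTCA, and act without a known hormone. In worms NHR-6 is known for its part in building the spermatheca, the organ in which eggs are fertilised. Introns of worm genes can hold enhancers, internal start sites and small non-coding genes, and a peak inside a gene can fall on any of these.

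The sequences under 6 of the strongest sites show what the summits held. Each runs from 50 bp before the summit to 50 bp after it, on the plus strand of ce11 (WBcel235). Capitals mark the NR4A element AAAGGTCA, runs of the GAGA repeat (GAGAGA), and the 7 letters GACGCAG that recurred beside it, each read on either strand. The site over sls-2.2, a gene for an SL2 spliced leader RNA, is shown because it was the highest of the 256 and the only one with the NR4A element (chrII:5543606-5543706).

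sls-2.2: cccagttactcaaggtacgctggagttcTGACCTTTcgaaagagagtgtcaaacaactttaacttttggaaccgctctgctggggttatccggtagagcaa

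The sites in introns of zfp-1 (chrIII:8800126-8800226), nhr-19 (chrII:9603533-9603633) and daf-14 (chrIV:10252507-10252607) are shown for the GAGA repeat.

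zfp-1: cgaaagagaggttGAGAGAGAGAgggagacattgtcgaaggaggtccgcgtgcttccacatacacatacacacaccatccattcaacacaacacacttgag
nhr-19: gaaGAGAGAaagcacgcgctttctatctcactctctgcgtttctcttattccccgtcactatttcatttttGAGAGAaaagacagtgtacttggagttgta
daf-14: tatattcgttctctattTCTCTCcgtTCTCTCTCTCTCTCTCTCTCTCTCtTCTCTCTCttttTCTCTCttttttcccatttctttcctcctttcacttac

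The site in epg-9 (chrIV:2602118-2602218) held both the repeat and GACGCAG, and that in Y111B2A.12 (chrIII:12612586-12612686) held GACGCAG without the repeat.

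epg-9: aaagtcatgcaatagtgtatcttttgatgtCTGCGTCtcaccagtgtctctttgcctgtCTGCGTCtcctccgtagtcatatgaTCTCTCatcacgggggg
Y111B2A.12: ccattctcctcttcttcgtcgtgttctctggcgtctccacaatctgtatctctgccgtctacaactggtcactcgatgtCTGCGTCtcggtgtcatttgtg

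Most sites lay in introns, and coding exons held few. Of the 256, 153 (59.8%, exact 95% interval 53.5 to 65.8) were in introns of protein-coding genes, where 51.2% of the eligible bases lie (bases inside autosomal genes and outside promoter windows). Exons of non-coding genes held 56 sites (21.9%, 17.0 to 27.4) on 4.85% of the eligible bases. Coding exons held 28 (10.9%, 7.39 to 15.4) on 36.8% of them, that is 1.74 sites per Mb. The 3′ UTRs held 10 sites, the 5′ UTRs 8 and introns of non-coding genes 1. The 8 sites in 5′ UTRs fell on 0.539% of the eligible bases. Intervals here and below cover counting error only.

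**Figure D1:**
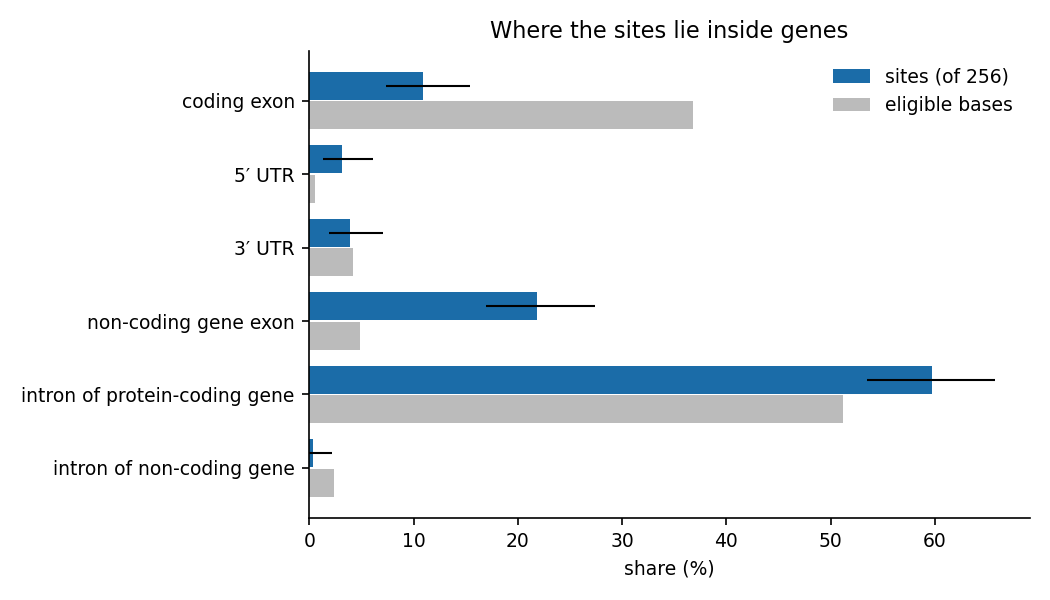
Share of the 256 sites in each class of gene feature (blue, with exact 95% intervals) beside the share of eligible bases in that class (grey). Introns of protein-coding genes held 59.8% of sites on 51.2% of bases, non-coding gene exons 21.9% on 4.85%, and coding exons 10.9% on 36.8%.

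Over the whole eligible space of 43.6 Mb the sites numbered 5.87 per Mb. Promoter windows held 33.9 sites per Mb and intergenic bases 16.8 per Mb. By chromosome the count was 44 on I, 52 on II, 61 on III, 52 on IV and 47 on V. Per eligible Mb these were 5.01, 6.68, 7.68, 6.10 and 4.44 in that order. As shares of each chromosome's optimal peaks they were 16.4%, 19.9%, 21.0%, 19.1% and 23.5%.

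Signal, the authors' own height per peak, is used here only within a list. In the pooled list the 256 sites had a median signal of 72.0, with a lowest value of 52.7 and a highest of 374. Promoter sites had a median of 81.4, intergenic sites 72.6 and X sites 77.6. The median rank of the 256 among the 1662 peaks was 935, 111 of them were among the upper 831, and 11 were among the highest 100.

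Both replicates held most of the sites, and replicate 2 placed fewer of them among its highest peaks, as in the other classes of site. A summit within 100 bp was present in the relaxed list (30000 candidate peaks) of replicate 1 for 249 sites (97.3%) and of replicate 2 for 212 (82.8%). For promoter, intergenic and X sites these shares were 98.9%, 98.6% and 99.2% in replicate 1 and 89.7%, 84.6% and 80.8% in replicate 2. Both lists held 206 of the 256, and 1 of the 256, in an intron of sea-2, was in neither. Among the 1662 highest peaks of each replicate were 215 of the 256 (84.0%) for replicate 1 and 140 (54.7%) for replicate 2. Promoter, intergenic and X sites had 84.9%, 85.3% and 87.3% there in replicate 1 and 68.0%, 53.0% and 52.7% in replicate 2. Of the 256, 115 (44.9%, 38.7 to 51.2) were among the highest of both, where the share over all 1662 optimal peaks was 50.4%.

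That share was lower than at promoter sites, of which 430 of 757 (56.8%) were among the highest of both (odds ratio 0.620, Fisher's exact test, two-sided, adjusted p = 0.0131 over 36 comparisons). It was 43.4% at intergenic sites (odds ratio 1.06, adjusted p = 0.891) and 46.2% at X sites (odds ratio 0.949, adjusted p = 0.891), both by the same exact test. These p-values are over peaks of 1 optimal set and describe these 2 samples only. The difference from promoters was no longer past the threshold with promoter windows from 2000 bp upstream (adjusted p = 0.891), with windows at the 5′ ends of all genes (0.0776), among the upper 831 peaks (0.971), with a 200 bp match (0.119) and without peaks narrower than usual (0.115), all by the same exact test. Signal moved with it: within the highest 554 peaks the share was 84.8% of 66 sites inside genes and 92.1% of 291 promoter sites, in the middle 554 it was 53.3% of 92 and 58.3% of 235, and in the lowest 554 it was 10.2% of 98 and 10.8% of 231. The part of signal in the difference was not tested.

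**Figure D2:**
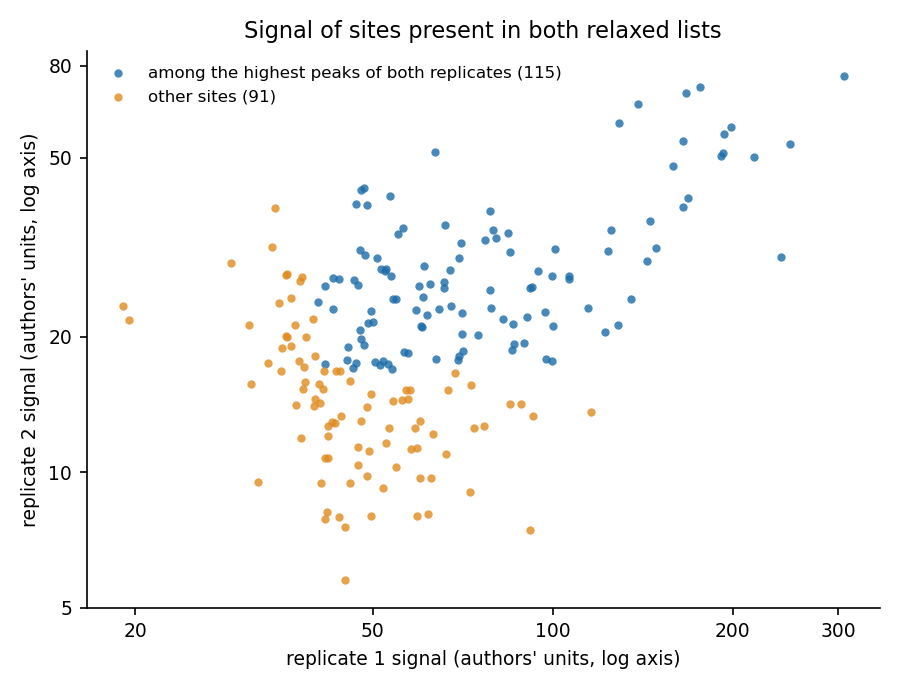
Signal in replicate 1 (horizontal) and replicate 2 (vertical), both on log axes and in the authors' units, for the 206 sites found in both relaxed lists. The 115 sites among the 1662 highest peaks of both replicates (blue) reach to the upper right, and the other 91 (orange) lie at low signal in at least 1 replicate.

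The 25 strongest sites were picked by pooled signal, which was made from both replicates. All were among the highest peaks of both, which is thus no separate check of agreement. Of the 25, 15 were in introns of protein-coding genes and 6 in exons of non-coding genes, 13 held the GAGA repeat, and their lowest pooled signal was 136. The site over sls-2.2 had a pooled signal of 374, with 306 in replicate 1 and 76.0 in replicate 2, and ranked 25 of 1662. SL2 RNAs are spliced onto messages of downstream operon genes. SL2 genes have near-identical copies and the handling of reads that match several of them was not given in the sources used here, so the place of this peak is uncertain.

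Among host genes with a known role, the kinase gene mnk-1 held a site in intron 2 (II:10552134) with a signal of 198 in replicate 1 and 58.5 in replicate 2. The intron 9 site of zfp-1, which encodes a PHD-finger chromatin protein related to human AF10, had 217 in replicate 1 and 50.2 in replicate 2, and its intron 4 site had 165 and 38.8 in the same order. These were high in both replicates. In dhc-4, a dynein heavy chain gene, the site in intron 31 had 191 in replicate 1 and 50.5 in replicate 2. In epg-9, an autophagy gene, the site in intron 2 had 193 in replicate 1 and 51.3 in replicate 2. The intron 2 site of nhr-19, itself a nuclear receptor gene, had 167 in replicate 1 and 69.5 in replicate 2. Ranks in the 2 lists also differed: the ncRNA gene C10F3.15 was at rank 38 in replicate 1 and at rank 443 in replicate 2.

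Signalling genes followed in the same list. The intron 1 site of daf-14, a Smad of the dauer TGF-β pathway, had 139 in replicate 1 and 66.0 in replicate 2. In vhp-1, a MAP kinase phosphatase gene, the site over the antisense RNA gene anr-54 had 159 in replicate 1 and 47.9 in replicate 2. A site classed as 3′ UTR lay inside both eat-16, an RGS protein gene, and ocrl-1, an inositol phosphatase gene on the other strand. It had 129 in replicate 1 and 59.6 in replicate 2. The class does not say that the base is 3′ UTR in both genes. The intron 6 site of daf-16, the FOXO factor of insulin signalling, had 143 in replicate 1 and 29.6 in replicate 2. The 5′ UTR site of egl-30, a Gq alpha gene, had 115 in replicate 1 and 23.2 in replicate 2. Replicate 2 placed the daf-16 site at rank 467 and the egl-30 site at rank 781, both within its 1662 highest. The rest of the 25 were sites in Y111B2A.12, C34C12.2, let-526, W06H8.6, spop-1, T28F4.1, osta-1 and pqn-41 and over the non-coding genes F22E12.9 and F22E12.10, linc-128, and T23F11.10 and T23F11.7. Of the 25, 7 were narrower than the usual pooled peak, as were 9 of the 256, at 90 to 169 bp. Narrow peaks were also 66 of 757 promoter, 8 of 279 intergenic and 21 of 370 X sites.

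The clearest shared sequence was the GAGA repeat. Of 11 motifs searched on both strands, it stood in the summit window of 112 of 256 sites (43.8%, 37.6 to 50.1) and in the window 250 bp to the right of 25 (9.77%). In 95 sites it was at the summit only and in 8 in the flank only (exact McNemar test, two-sided, adjusted p = 5.6e-19 over the 11 motifs). The motifs were chosen with earlier results of these data known, so tests of the repeat here are not of a hypothesis set in advance. The repeat stood in 4.76% of tiles of the same length over the eligible space and 3.93% of intron tiles. Its nearest copy lay a median of 19.5 bp from the summit, within 25 bp in 72 of the 112, and the median longest alternating run in these windows was 7 bp, with 62 bp as the longest. Only copies within 50 bp of the summit were counted, which bounds the distance to the nearest copy. In replicate 2's own 1662 highest peaks (replicate 1 left out) the share was 28.4% of 289 sites, and in replicate 1's 37.8% of 270, with the difference from the flank past the threshold in each.

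**Figure D3:**
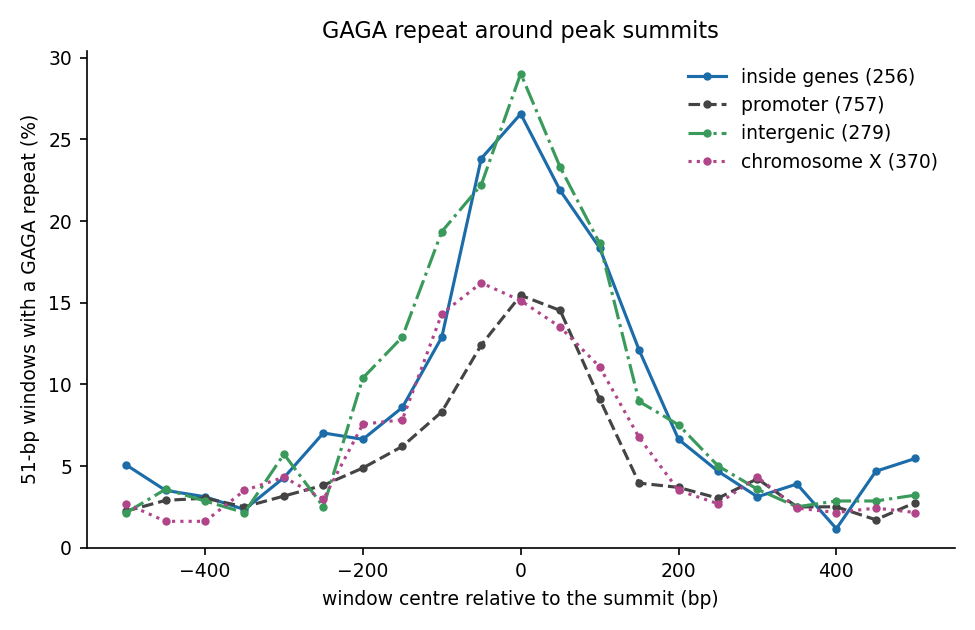
Share of 51-bp windows with a GAGA repeat (vertical, percent) by the distance of the window's centre from the summit (horizontal, bp), for sites inside genes, promoter sites, intergenic sites and X sites. At the summit the share was 26.6% inside genes, 15.5% at promoters, 29.0% in intergenic sites and 15.1% on X, and at 500 bp to the right it was 5.47%, 2.77%, 3.23% and 2.16% in that order.

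Promoter sites held the repeat less often, in 205 of 757 (27.1%; odds ratio 2.09, sites inside genes over promoter sites, Fisher's exact test, two-sided, adjusted p = 4.3e-05). On X it was in 110 of 370 (29.7%; odds ratio 1.84, adjusted p = 0.0064 by the same exact test). Intergenic sites held it in 125 of 279 (44.8%; odds ratio 0.958, adjusted p = 0.891 by that exact test), so no difference from them was detected. The difference from promoters was past the threshold in replicate 1's own list but not in replicate 2's (Fisher's exact test, adjusted p = 0.12) nor with promoter windows from 2000 bp upstream (0.062). That from X was lost in each replicate's own list (0.631 in replicate 2's, 0.247 in replicate 1's), with 2000-bp windows (0.062), among the upper 831 peaks (0.365) and with sequence windows of 100 bp on each side of the summit (0.526).

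The repeat was not even across features. It was in 76 of 153 sites in introns of protein-coding genes (49.7%), in 26 of 56 over non-coding exons (46.4%) and in 2 of 28 in coding exons (7.14%). The flanks of these sites differed too, with 11.1%, 10.7% and 0% in that order. Within introns it was in 70 of 124 sites where the intron was at least 1000 bp long (56.5%) and in 6 of 29 in shorter introns (20.7%). Their flanks held it in 13.7% and 0%. The part of this background in the unevenness was not tested. It was in 23 of 49 sites in first introns (46.9%) and in 53 of 104 in later ones. It was in 55 of the 111 sites of the upper 831 peaks (49.5%) and 57 of the other 145 (39.3%), and in 51 of the 115 sites among the highest of both replicates (44.3%) and 61 of the other 141 (43.3%). By chromosome the share ran between 34.0% on V and 61.4% on I, and that of the flanks between 3.85% on IV and 18.0% on III.

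The 7-letter words most raised at summits over flanks were mostly parts of the repeat, such as CTCTCTC in 61 windows against 12 in the flanks. Another word, GACGCAG, stood in 28 summit windows (10.9%) and 5 flanks (1.95%), and in 0.691% of eligible tiles. It was noticed in these data and so is described without a test. It stood with the repeat in 16 of the 28 windows, and in 12.7% of promoter, 14.7% of intergenic and 8.38% of X sites. Windows with either sequence numbered 124 (48.4%).

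The NR4A element was rare. It stood in 1 of 256 summit windows (0.391%, 0.00989 to 2.16), in 2 flanks, and in 0.209% of eligible tiles (exact McNemar test, adjusted p = 1 against the flanks). Its shorter core AGGTCA, which the element contains, was in 5 summit windows and 7 flanks. The other 8 motifs were the AP-1 element (TGACTCA, 3 summits and 2 flanks), the CREB element (TGACGTCA, 5 and 3), the MYC-type E-box (CACGTG, 13 and 8), the MyoD-type E-box (CAGCTG, 7 and 5), the GATA site (TGATAA, 16 and 22), the forkhead site (TGTTTAC, 2 and 5), the B box of RNA polymerase III genes (GTTCGANNC, 5 and 1) and the TATA box (TATAAA, 15 and 21), each given as summits and then flanks. None of these passed the threshold against the right flank; against a left flank the TATA box was lower at summits, with 15 summits and 34 flanks (exact McNemar test, adjusted p = 0.0437). Over eligible tiles the shares were 2.15% for AGGTCA, 0.768% for the AP-1 element, 0.617% for the CREB element, 1.84% and 2.21% for the MYC-type and MyoD-type E-boxes, 8.87% for the GATA site, 0.824% for the forkhead site, 0.813% for the B box and 9.82% for the TATA box. A match is a description of the letters in the window, and no match says nothing about the factor.

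**Figure D4:**
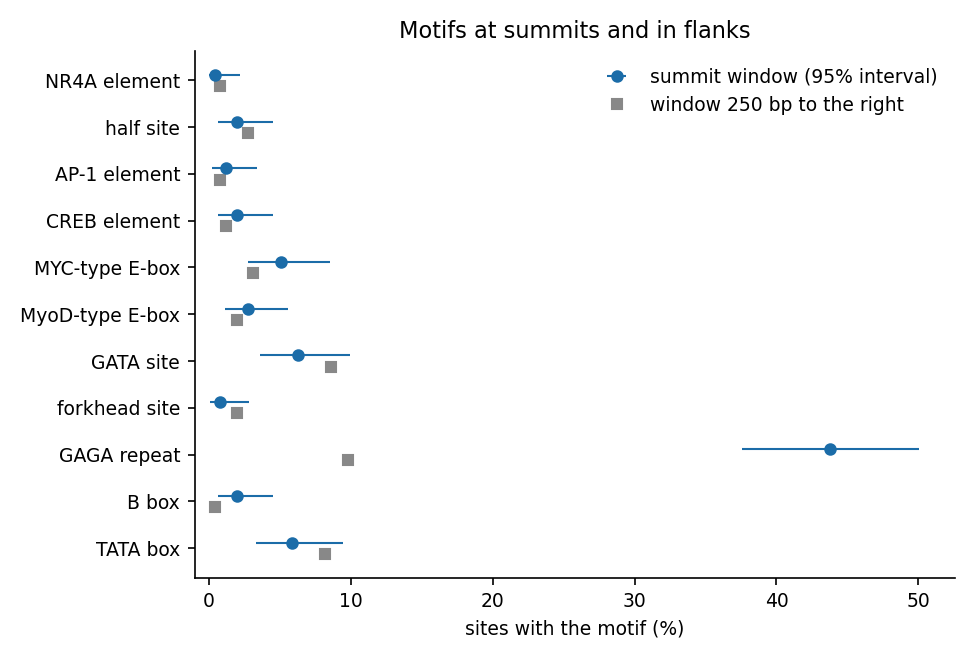
Share of the 256 sites (horizontal, percent) with each of 11 motifs in the summit window (blue, exact 95% intervals) and in a window 250 bp to the right (grey). The GAGA repeat stood at 43.8% of summits and 9.77% of flanks, and every other motif was under 10% in both.

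Base composition moved with these counts. The median G and C content was 44.6% at summits, 37.6% in the flanks, 36.6% over eligible tiles and 32.7% over intron tiles. Promoter summits had a median of 44.6% as well. Sites with the repeat had a median of 46.0% and sites without it 43.6%. The part of base composition in the motif counts was not tested.

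Sites in introns lay mostly in long introns. Of the 153, 124 (81.0%) were in introns of at least 1000 bp, where 48.2% of the eligible intron tiles lie, and the median intron length was 4213 bp against 953 bp over tiles. The first intron held 49 of the 153 (32.0%, 24.7 to 40.0), where 20.3% of the tiles lie. The median distance of all 256 summits to the nearest protein-coding 5′ end was 1695 bp, against 1596 bp over eligible tiles.

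The sites fell in 176 protein-coding genes, 148 with 1 site, 16 with 2 and 12 with 3 or more. Another 36 sites lay outside protein-coding genes and 4 in a pair of overlapping ones. Hosts were long: their median length was 8599.5 bp against 1964 bp over the 17242 autosomal protein-coding genes. The share of genes that were hosts was 0.137% up to 2000 bp, 0.794% between 2000 and 5000 bp, 2.48% between 5000 and 10000 bp, 7.57% between 10000 and 20000 bp and 12.9% above. Of the hosts, 48 (27.3%) also had an optimal site in the promoter window of 1 of their own transcripts, where the share over all autosomal protein-coding genes was 5.81%. Among hosts between 10000 and 20000 bp long it was 16 of 51 (31.4%), against 48 of 623 other genes of that length (7.70%). Above 20000 bp it was 4 of 22 (18.2%), against 14 of 149 (9.40%). The own window can belong to an internal start of the gene.

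The gene with most sites was ppfr-1, which encodes a regulatory subunit of protein phosphatase 4. Its 6 sites spanned 9694 bp, had signals of 59.0 to 107, and 4 of them were among the highest of both replicates. In pqn-41, whose product is rich in glutamine and asparagine, 5 sites lay in intron 14 with signals of 81.2 to 205. In pkg-2, a cGMP-dependent protein kinase gene, 4 sites lay in intron 4 with signals of 93.1 to 134, none with the repeat. In nhr-19, 3 sites lay in intron 2, each among the highest of both replicates and each with the repeat. Their signals in replicate 1 were 60.5, 47.7 and 167, and in replicate 2 they were 21.1, 20.7 and 69.5, so the site nearest the 5′ end of the gene, at 1943 bp, was the highest in both.

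The forkhead gene fkh-7 held 2 sites in intron 1 and 1 in intron 4. They had 70.4, 90.4 and 84.8 in replicate 1 and 22.6, 22.2 and 30.8 in replicate 2, at 6616, 9328 and 19982 bp from the 5′ end. The SWI/SNF gene let-526 held 2 sites in intron 4, with 107 and 145 in replicate 1 and 26.8 and 36.1 in replicate 2. The remaining site of let-526, over the antisense RNA gene F48C1.15, had 69.6 in replicate 1 and 30.0 in replicate 2. All sites of fkh-7 and let-526 were among the highest of both replicates, and both genes also had a site in a promoter window of their own. In pkg-2 the 4 sites had 91.6, 106, 88.5 and 67.3 in replicate 1 and 25.6, 27.3, 14.2 and 28.1 in replicate 2, and the one at 8386 bp from the 5′ end was not among the highest of replicate 2. In vhp-1 the site over anr-54 was the one of 4 that both replicates placed among their highest. The pair in its intron 4 lay at 13698 and 13904 bp from the 5′ end, and each had a summit within 100 bp in the list of 1 replicate alone.

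**Figure D5:**
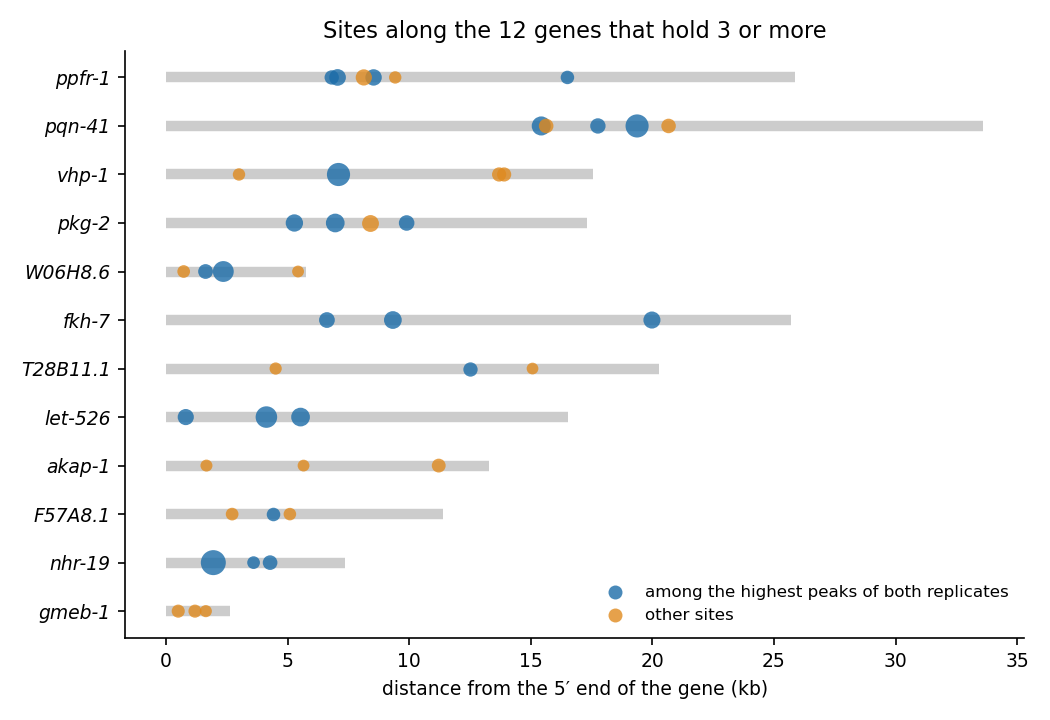
Positions of sites along the 12 genes with 3 or more of them, as distance in kb from the gene's 5′ end (horizontal). Grey bars are the genes, dots are summits with area in proportion to pooled signal, blue where the site is among the highest peaks of both replicates and orange otherwise. The 5 sites of pqn-41 lie within 5236 bp of each other, all in intron 14.

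The other hosts of 3 or more were vhp-1 and W06H8.6 with 4 each, and T28B11.1, akap-1, F57A8.1 and gmeb-1 with 3 each. The genes with 2 were mnk-1, zfp-1, dhc-4, nhr-34, daf-5, F58G1.7, gei-4, egl-27, sea-2, unc-119, ncl-1, F23F1.4, best-4, sax-7, C07A9.9 and F53E4.1. Hosts with 2 or more sites held 76 of the 256. Of 251 neighbouring pairs of sites, 33 were within 2000 bp of each other and 7 within 500 bp, so neighbouring sites can share DNA fragments.

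By function, regulators of transcription were among the hosts in small numbers. Over all autosomal protein-coding genes 176 of 17242 (1.02%) were hosts. Nuclear receptor genes held sites in 4 of 247, with a median gene length of 2253 bp. These were nhr-19, nhr-34 (signals 120 and 75.9), nhr-46 (118) and nhr-31 (94.7). The nhr-46 site had no summit within 100 bp in the replicate 2 list. Other transcription factors were hosts in 6 of 74 (median gene length 3699 bp): daf-16, fkh-7, lag-1, mef-2, egl-27 and klf-1. Among bZIP genes 2 of 24 were hosts. The intron 1 site of skn-1, the Nrf factor of the oxidative stress response, had a pooled signal of 126, with 21.2 in replicate 2, and atf-7 had a pooled signal of 61.6. The homeobox list had 1 of 67, unc-62, and the bHLH list 0 of 30. Chromatin genes had 2 of 47, zfp-1 and let-526, with 5 sites.

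Signalling lists followed. Notch and TGF-β genes had 3 of 29, namely daf-14, daf-5, the Sno/Ski factor of the dauer pathway, and lag-1, the DNA-binding factor of Notch signalling. In daf-5 the site nearer the 3′ end had 85.7 in replicate 1 and 21.4 in replicate 2. The other had no summit within 100 bp in the replicate 1 list and 9.58 in replicate 2. The lag-1 site had 86.0 in replicate 1 and no summit within 100 bp in the replicate 2 list. Insulin and dauer genes had 2 of 49, daf-16 and the insulin receptor gene daf-2, and Ras genes had 1 of 23, the ERK gene mpk-1, with 60.1 in replicate 1 and 21.1 in replicate 2. Wnt genes had 0 of 26. The heterochronic list had 1 of 12, sea-2.

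Lists of structural and tissue genes had at most 2 hosts each. Against 1.02% over all autosomal protein-coding genes, the share was 6.25% for junction and spermatheca genes and 7.14% for basement membrane genes. It was 3.64% for neuronal, 2.70% for axon guidance and adhesion, 2.38% for lipid and 2.27% for muscle genes. Collagens (0.690%), chemoreceptors (0.0783%) and ribosomal protein genes (0%) lay below the share over all genes. Junction and spermatheca genes had 2 of 32, the cell adhesion gene sax-7 and the filamin gene fln-1, with pooled signals of 52.9 to 59.8. Neuronal genes had 2 of 55 (egl-30 and unc-43), axon guidance and adhesion genes 1 of 37 (sax-7), basement membrane genes 1 of 14 (pxn-1), muscle genes 1 of 44 (mup-4), lipid genes 1 of 42 (fasn-1), collagens 1 of 145 (col-85), chemoreceptors 1 of 1277 (srh-2) and ribosomal protein genes 0 of 80. Gene length differed between these lists as the host share did, from a median of 755 bp for ribosomal protein genes to 11442 bp for basement membrane genes, and its part was not tested.

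Of the 56 sites over exons of non-coding genes, 21 were inside a protein-coding gene and 35 outside. Counting each type of gene under a summit, 35 fell on ncRNA genes, 10 on lincRNA, 6 on snoRNA, 5 on tRNA, 4 on antisense RNA, 2 on snRNA, 2 on miRNA genes and 1 on a pseudogene. The lincRNA sites had signals of 61.0 to 217 and 7 of 10 held the repeat. The 5 tRNA sites had 55.0 to 74.6, of which 1 was among the highest of both replicates, and the 6 snoRNA sites had 57.5 to 74.8. Genes for tRNAs and snRNAs can have near-identical copies, so the place of these sites is uncertain in the same way as that over sls-2.2. No window had been set at 5′ ends of non-coding genes. With such windows added, 164 sites were left in all.

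Sites in coding exons were led by osta-1 (II:8415), an organic solute transporter gene, with 125 in replicate 1 and 34.5 in replicate 2. The next were 2L52.1, with 80.2 in replicate 1 and 33.3 in replicate 2, and dos-3, with 65.7 and 26.5 in the same order. The 5′ UTR sites were led by C34C12.2, with 176 in replicate 1 and 72.0 in replicate 2, followed by egl-30 and ZK484.6. The 3′ UTR sites were led by the one inside both eat-16 and ocrl-1, followed by nra-1 and the glutamate transporter gene glt-6.

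Many of the coding exon sites lay at the left end of chromosome II. Its first 35000 bp held 23 optimal peaks, or 657 per Mb, where the whole chromosome held 17.1 per Mb. Of these, 12 were sites inside genes, between II:4517 and II:30328, 11 of them in coding exons of osta-1, 2L52.1, enee-1, F23F1.5, gmeb-1, F23F1.4, best-4 and best-3. Only 3 of the 12 were among the highest of both replicates by the 100 bp summit match, and 1 held the repeat. Counting peaks of any class, each replicate's own list had 24 of its highest peaks in these 35000 bp. The relaxed lists held 1486 peaks per Mb there in replicate 1 and 1343 in replicate 2, against 315 and 290 over the whole chromosome. The cluster of peaks was thus present in both replicates. Elsewhere coding exons held 17 of 244 sites (6.97%). The cause of the cluster was not tested.

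unc-119, the gene mutated in the strain, held 2 sites in intron 1. The one at III:10905262 had 47.6 in replicate 1 and 31.2 in replicate 2, and the one at III:10903405 had 53.1 and 12.5 in the same order. Worm transgenes often carry unc-119 as a rescue marker, and whether reads from such copies contribute to these peaks was not tested. No site lay within 50 kb of nhr-6.

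Some sites sat close to the edge of the rule. The nearest to a window were in nhr-34 (3 bp outside it, signal 120), in ZK112.4 and ncl-1 (4 bp, 70.3), nac-3 (5 bp, 89.5), over T23F11.10 (16 bp, 155) and in K11D2.4 (26 bp, 123). The promoter sites nearest to leaving one were those of zfp-1 (1 bp inside, 175), mrpl-23 (10 bp, 83.6), pas-5 (10 bp, 82.3), ZC21.10 (13 bp, 53.9) and Y71F9AL.8 (21 bp, 57.8). The signals on both sides of the edge overlapped.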

How the data were processed

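Peak lists from ChIP-seq of 2 biological replicates of eGFP-NHR-6 in L2 larvae were used, on build ce11. Per the file lists deposited with the samples, the authors made 1 relaxed list per replicate, 1 from both replicates together, and the optimal set from these by the irreproducible discovery rate. Aligner, peak caller and threshold were not given in the sources used here. In the deposited lists a peak has a signal set by the authors on a scale that was not given, −log10 of the q-value, and the offset of the summit. The other deposited scores and the lists on ce10 were not used. Read depth is unknown.

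Summits were placed on Ensembl release 115 gene models (WBcel235, the same assembly), with exons of any gene called before introns and piRNA genes left out. Sequence came from the RefSeq genome of that assembly. Motifs were searched on both strands within 50 bp of the summit. Sites were compared with promoter, intergenic and X sites by Fisher's exact test (36 comparisons) and with flanks (250 bp to the right) with McNemar's exact test (11 motifs), two-sided, with Benjamini-Hochberg adjustment at 0.05. Intervals are Clopper-Pearson, 95%. The motif tests were tried on simulated windows of independent letters, with and without a planted GAGAGA. These windows had a fixed base composition and did not copy the clustering of the real sites. No other procedure was simulated. Where the labels give 2 biological replicates in 1 group, p-values over peaks describe these samples only.

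The members, the 20 gene lists and the motifs were chosen with earlier results of these data known. Genes named were the hosts of the 25 strongest sites, genes with 2 or more sites, listed genes with a site (at most 6 per list), the 3 strongest sites of each exon class, the 5 sites on each side of the window edge, and sites within 50 kb of nhr-6 or unc-119; GACGCAG, the left end of chromosome II and the coding exon genes there, and the C10F3.15 ranks were picked after their values were seen. Alternatives changed the promoter window, gene types, order of features, peak set, match distance, sequence window and flank. Python 3.11.15, pandas 2.3.3 and SciPy 1.17.1 were used.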

Additional observations from a re-analysis of the deposited data

How the results depend on the processing

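Over 18 alternatives, 236 values were recomputed, of which 187 kept their direction, side of the threshold or value; 3 alternatives (left end of chromosome II, narrow peaks, a longer repeat) were chosen after seeing the data. The GAGA repeat stayed past the threshold against flanks in every alternative that gave it a value. The count of sites fell to 164 with windows at 5′ ends of all genes and to 111 in the upper 831 peaks. The intron share was 70.7% with those windows, 79.1% with protein-coding genes only and 69.9% with introns called before exons, and the share in long introns 87.1% with those windows. The median distance to a 5′ end was 1511.5 bp with a window from 500 bp upstream, 2238 bp from 2000 bp upstream and 1868 bp in the upper 831, where the median rank was 469. With the 500-bp window 19% of hosts had a site in their own promoter.

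Motifs past the threshold against flanks numbered 2 with windows of 100 bp on each side and with left flanks, the TATA box being lower at summits (exact McNemar test, adjusted p = 0.0435 and 0.0437), and 2 with flanks at 500 bp, the MYC-type E-box being higher (adjusted p = 0.00134). The share with the GAGA repeat was 26.6% in windows of 25 bp on each side, 57.0% in those of 100 bp and 14.8% for GAGAGAGA. Leaving out a replicate gave 28.4% and 37.8%. Motif comparisons with other classes of site past the threshold numbered 0 with 2000-bp windows, 1 in the upper 831, 1 with windows of 100 bp on each side, and 0 to 3 with a replicate left out. The odds ratio of the repeat against promoters was 1.71 with 2000-bp windows and 1.57 to 1.61 with a replicate left out. Against X it was 1.77 with 2000-bp windows, 1.80 in the upper 831, 1.33 with windows of 100 bp on each side and 1.34 to 1.39 with a replicate left out. The share among the highest peaks of both replicates was 79.3% in the upper 831 and 30.1% with a 50 bp match. Its odds ratio against promoters was 0.778 with 2000-bp windows, 0.626 with windows at all 5′ ends, 0.648 in the upper 831, 0.685 with a 200 bp match and 0.679 without narrow peaks.

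Odds ratios near 1 changed side without a call. That of the repeat against intergenic sites was 1.03 without the left end of chromosome II. That of presence in both replicates against intergenic sites was 0.990 with the 500-bp window, 0.970 with windows at all 5′ ends, 0.968 with protein-coding genes only and 0.949 with a 50 bp match, and against X sites 1.07 with the 2000-bp window, 1.11 in the upper 831 and 1.00 without narrow peaks. The NR4A element was 0.39 percentage points higher at summits with flanks at 500 bp. The cause of these changes was not tested. No paired analysis was possible because the 2 samples form 1 group. Unknown read depth limits what a missing peak shows.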
